A study of Mus musculus with 12 samples.

Results

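Lysyl oxidases, the CCN genes Ccn1 and Ccn2 and the ligands of transforming growth factor beta (TGF-beta) were described on every array of a mouse lung study of radiation and simvastatin. The 9 genes, Lox, Loxl1, Loxl2, Loxl3, Ccn1, Ccn2, Tgfb1, Tgfb2 and Tgfb3, were chosen by gene family among the 11602 genes tested, with the differences of Lox and Ccn2 already known. Each gene was represented by its probe set (the group of array probes read as 1 value) with the highest mean over 12 arrays. That gave 8 measured genes. Both probe sets of Loxl2 are annotated to Loxl2 and Gm21451 together, so no value was assigned to it. All 8 measured genes passed the filter on low values on 12 of 12 arrays.

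Lung RNA of wild-type mice was hybridised to 12 Affymetrix arrays, 3 for each of 4 groups. Control mice received vehicle. Radiation mice were taken 6 weeks after a single dose of 25 Gy. Simvastatin mice received 10 mg/kg of the drug intraperitoneally 3 times a week for up to 6 weeks, and the combined group received both treatments. Simvastatin inhibits HMG-CoA reductase and so limits the synthesis of cholesterol. The labels give an age of 8 to 10 weeks for control mice and 8 to 12 weeks for all others, so in comparisons with control age and treatment cannot be told apart. They do not say whether the arrays of a group stand for different animals, and p-values then measure only the spread between these samples, which may be technical. In whole lung, fewer cells of a type and less RNA per cell cannot be told apart.

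Lysyl oxidases are secreted copper enzymes that oxidise lysines of collagen and elastin, the first step of their crosslinking into stiff fibres. TGF-beta is stored in the matrix as a latent complex, and the released ligand acts through Tgfbr1 and Tgfbr2 on Smad2 and Smad3. Lysyl oxidases and Ccn2 are known targets of TGF-beta in fibroblasts. Ccn1 and Ccn2 are matricellular proteins and widely used readouts of YAP and TAZ, coactivators that bind DNA through TEAD factors and respond to matrix stiffness. In the lung, TGF-beta, Ccn2 and Lox are best known for their part in fibrosis.

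Several arrays stand apart or go against their labels. The log2 values of combined 3, simvastatin 1 and simvastatin 3 differed from each other with an SD of only 0.111 to 0.118 over 10342 bright probe sets, against 0.336 or more in every other pair. Simvastatin 1 and 3 were averaged to 1 sample, which left simvastatin with n = 2, while combined 3 kept its own label. Cdkn1a, the p53 target that encodes p21, read log2 13.12 to 13.42 on the radiation arrays and 10.25 and 10.69 on control 1 and 2. It read 13.01 on control 3, 11.18 on the array labelled combined 3 and 13.36 on that labelled simvastatin 2, so these 3 arrays go against their labels. Markers of other tissues also varied. The summed signal of 4 measured T cell and thymocyte markers of 8 was log2 14.30 on control 1, 10.45 on combined 1 and 6.77 to 8.12 elsewhere. Rag1, a marker of that list that did not pass the filter, read 14.42 on control 1, 11.05 on combined 1 and 2.33 or less elsewhere. That of 7 squamous epithelium markers of 8 was 14.13 to 16.75 on 5 arrays and 8.66 to 10.52 on the others. That of 8 skeletal muscle markers was 14.21 to 16.23 on 7 arrays and 7.69 to 9.0 on 5. All control arrays were among the 7 and all simvastatin arrays among the 5. By group it was 14.25 to 15.65 in control, 8.38 to 15.36 in radiation, 8.82 to 16.23 in combined and 7.69 to 9.0 in simvastatin. Lung markers were present on every array, with Sftpc, the surfactant protein of alveolar type 2 cells, at 15.57 to 15.84.

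Promoter sequence was found for 3 of the 9 genes, Ccn1, Tgfb1 and Tgfb2, in RefSeq tables of build GRCm38.p6. The 250 bases before each annotated start are shown because the CCN genes are read as TEAD targets, while the ligands are read as regulators upstream. They lie at chr3:145649986-145650235 on the minus strand for Ccn1, chr7:25686752-25687001 on the plus strand for Tgfb1 and chr1:186705990-186706239 on the minus strand for Tgfb2. Capitals mark the TEAD motif GGAATG, read on the opposite strand as CATTCC, and the TATA box TATAAA.
Ccn1: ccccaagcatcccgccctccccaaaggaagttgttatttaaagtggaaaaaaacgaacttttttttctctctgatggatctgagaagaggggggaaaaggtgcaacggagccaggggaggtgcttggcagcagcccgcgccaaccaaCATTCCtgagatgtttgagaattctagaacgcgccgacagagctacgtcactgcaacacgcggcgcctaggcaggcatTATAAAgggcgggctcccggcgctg
Tgfb1: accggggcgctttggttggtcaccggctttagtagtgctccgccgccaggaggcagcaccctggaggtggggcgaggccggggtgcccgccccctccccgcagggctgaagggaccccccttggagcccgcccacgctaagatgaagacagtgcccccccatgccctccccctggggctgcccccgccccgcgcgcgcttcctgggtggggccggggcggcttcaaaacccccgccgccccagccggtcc
Tgfb2: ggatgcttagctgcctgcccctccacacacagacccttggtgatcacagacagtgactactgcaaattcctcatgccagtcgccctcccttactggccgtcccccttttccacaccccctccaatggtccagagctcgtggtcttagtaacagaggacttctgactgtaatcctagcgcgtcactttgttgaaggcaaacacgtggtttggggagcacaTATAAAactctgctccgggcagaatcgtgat
The Ccn1 window held a TEAD motif 103 to 98 bases before the start and a TATA box 25 to 20 bases before it. The Tgfb2 window held a TATA box 31 to 26 bases before the start and the Smad-type motif CAGAC at 221 to 217 and at 204 to 200 bases. The Tgfb1 window held none of the 5 motifs searched on both strands, which also included the AP-1 motif TGANTCA and the CArG box bound by serum response factor. Its GC content was 75.2%, against 54.8% for Ccn1, 53.6% for Tgfb2 and a median of 52.4% over 32851 promoters of the same length. Among those promoters 12.6% held the TEAD motif, 12.4% the TATA box, 42.2% CAGAC, 6.75% the AP-1 motif and 1.47% the CArG box. A match describes letters in a window, not a bound site.

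Lox, the founding lysyl oxidase, was highest on the radiation arrays (Entrez gene 16948, probe set 1416121_at). Its log2 intensity was 9.26, 9.96 and 10.87 on control 1, 2 and 3, and 13.12, 11.36 and 11.55 on radiation 1, 2 and 3. In the combined group it read 10.67, 10.69 and 10.71, and in the simvastatin group 10.76, 11.40 and 10.67. Every radiation array lay above every control and every combined array, and the array labelled simvastatin 2 lay between radiation 2 and 3. Group means were 12.01 ± 0.96 (SD, n = 3) in radiation, 11.06 ± 0.48 (SD, n = 2) in simvastatin, 10.69 ± 0.02 (SD, n = 3) in combined and 10.03 ± 0.81 (SD, n = 3) in control. Each neighbouring pair in this order differed by less than the larger of its 2 SDs. The span over the arrays was 3.86 on the log2 scale, or 14.5-fold, larger than in 95.5% of genes, whose median span was 1.17.

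A further Lox probe set, 1448228_at, showed the same order between groups. It read 8.27, 9.37 and 9.58 in control, 11.90, 10.12 and 9.99 in radiation, 9.27, 9.55 and 9.03 in combined and 9.17, 10.37 and 9.0 in simvastatin. Radiation minus control was 1.60 with it and 1.98 with the first. The dimmest Lox probe set, 1437903_at, stayed between 2.52 and 3.90 and passed the filter on 0 arrays. The highest array of all 3 was radiation 1, which also had the lowest summed fibroblast marker signal (10 of 10 markers measured, 16.41 against 16.46 to 17.01 elsewhere) and the lowest smooth muscle signal (6 of 6 markers, 13.89 against 14.23 to 15.43). Among the fibroblast markers Col1a1, a collagen chain that Lox crosslinks, was at its lowest there, at 9.56 against 10.58 to 11.38. So were Col1a2, Col3a1, Lum and Pdgfrb, while Inmt was at its highest, 15.24 against 14.42 to 15.20. Pdgfra, Dcn, Dpt and Tcf21 lay in between. The part of these differences in the Lox value was not tested.

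**Figure D1:**
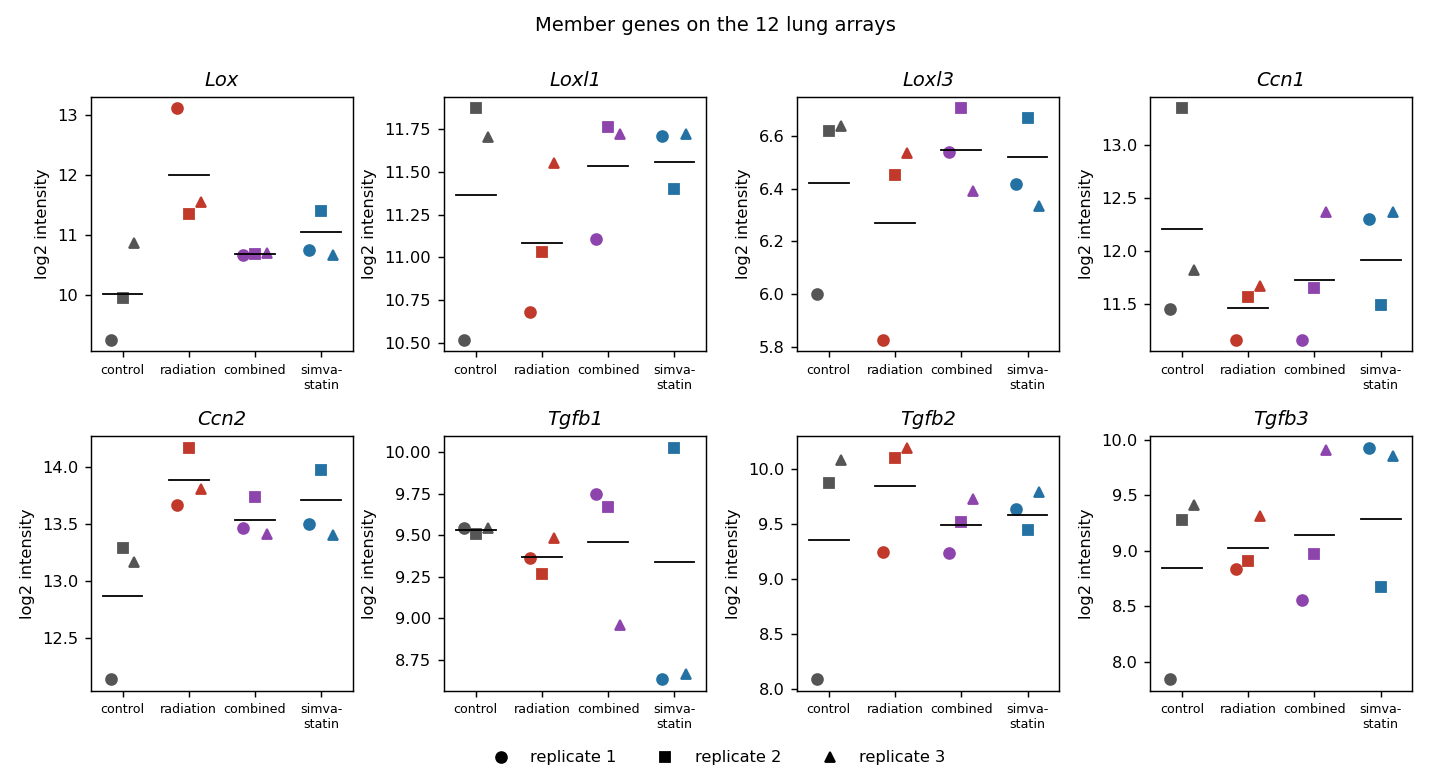
Log2 intensity of the 8 measured genes on every array, with 1 panel per gene, groups along the horizontal axis, circles, squares and triangles for replicates 1, 2 and 3, and black bars for group means (simvastatin over 2 samples). Lox on the radiation arrays sits between 11.36 and 13.12, above all control and combined arrays, and Ccn2 on all control arrays sits at 13.29 or lower, below all others.

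The groups of arrays overlapped for Loxl1 and for Loxl3, and both genes were lowest on control 1 and radiation 1. Loxl1, which is needed for elastic fibre renewal, read 10.52, 11.87 and 11.70 in control and 10.68, 11.03 and 11.55 in radiation (Entrez gene 16949, probe set 1451978_at). Its combined values were 11.11, 11.76 and 11.72, and its simvastatin values 11.71, 11.40 and 11.72, so all groups overlapped. Radiation minus control was -0.28 ± 0.37 (SE), and -0.70 without control 1, -0.02 without control 2 and -0.07 without radiation 1. The dimmer Loxl1 probe set 1436063_at gave 0.76 for the same difference, with 3.54 on control 1 and 6.16 to 7.26 elsewhere, so the 2 probe sets disagree in sign. Loxl3, another member of the family, had the smallest span of the 8 genes, 0.88 (Entrez gene 16950, probe set 1418269_at). It read 6.00, 6.62 and 6.64 in control, 5.83, 6.45 and 6.54 in radiation, 6.54, 6.70 and 6.39 in combined and 6.42, 6.67 and 6.33 in simvastatin. Its groups overlapped, and radiation minus control was -0.15 ± 0.29 (SE), -0.36 without control 1 and 0.07 without radiation 1.

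**Figure D2:**
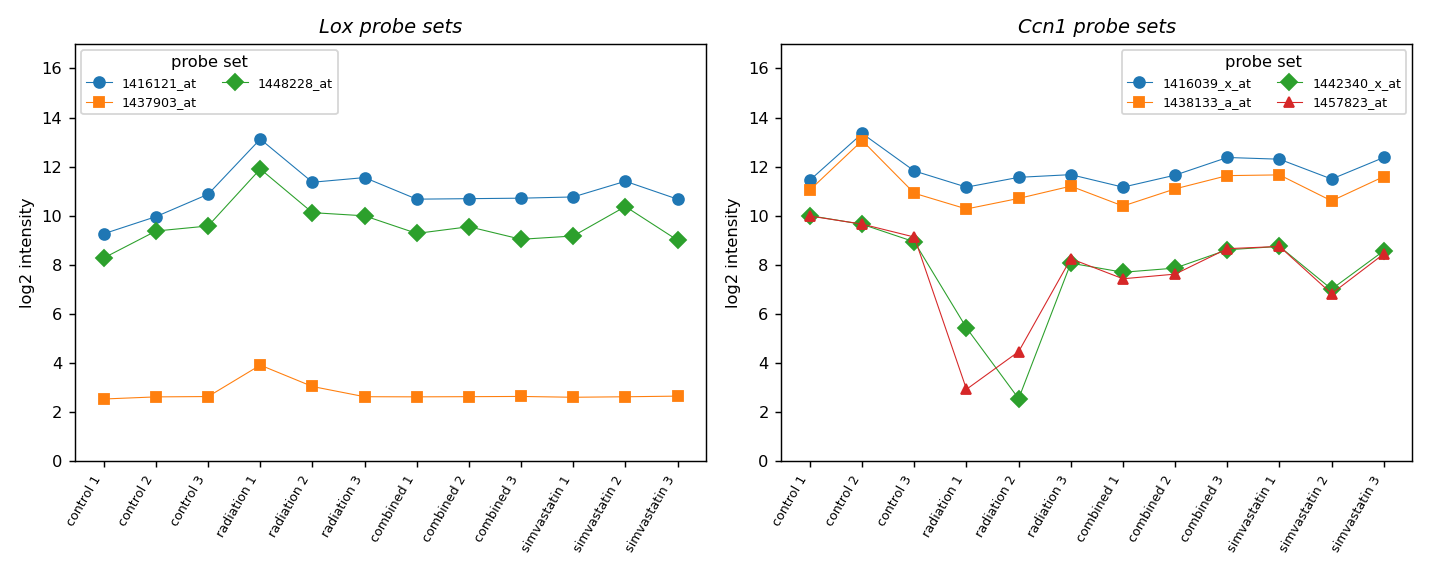
Log2 intensity of every probe set of Lox (3) and Ccn1 (4) on the 12 arrays, 1 line per probe set. The 2 bright Lox probe sets peak on radiation 1, at 13.12 and 11.90, while 2 of the 4 Ccn1 probe sets drop to 2.53 to 5.42 on radiation 1 and 2.

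Ccn2, also called connective tissue growth factor, was lowest in control (Entrez gene 14219, probe set 1416953_at). It read 12.14, 13.29 and 13.17 on control 1, 2 and 3 and 13.67, 14.17 and 13.81 on radiation 1, 2 and 3. Combined values were 13.46, 13.74 and 13.41, and simvastatin values 13.50, 13.97 and 13.40. All 3 control arrays lay below all 9 other arrays, a pattern met by 43 of 11602 genes, or 0.371%. That pattern includes the radiation minus control difference known when Ccn2 was chosen, and the near-identical arrays are among the 9. It is given as a description. Group means were 13.89 ± 0.26 (SD, n = 3) in radiation, 13.71 ± 0.36 (SD, n = 2) in simvastatin, 13.54 ± 0.18 (SD, n = 3) in combined and 12.87 ± 0.63 (SD, n = 3) in control. The 3 treated groups differed from their neighbours in this order by less than the larger SD. The combined group lay 0.67 above control, slightly more than the control SD.

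Ccn1, also called Cyr61, is the other CCN gene of the set and was highest on control 2 (Entrez gene 16007, probe set 1416039_x_at). It read 11.45, 13.35 and 11.82 in control. Radiation values were 11.16, 11.56 and 11.67, combined values 11.16, 11.65 and 12.37, and simvastatin values 12.30, 11.49 and 12.37. Group ranges overlapped throughout. Means were 12.20 ± 1.01 (SD, n = 3) in control, 11.46 ± 0.27 (SD, n = 3) in radiation, 11.73 ± 0.61 (SD, n = 3) in combined and 11.91 ± 0.60 (SD, n = 2) in simvastatin.

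The 4 Ccn1 probe sets were lower on average in radiation than in control, by different amounts. Radiation minus control was -0.74 with the brightest and -0.95 with 1438133_a_at. The probe set 1442340_x_at read 10.0, 9.64 and 8.93 in control, 5.42, 2.53 and 8.06 in radiation, 7.69, 7.86 and 8.61 in combined and 8.74, 7.0 and 8.56 in simvastatin. The probe set 1457823_at read 9.98, 9.65 and 9.12 in control, 2.91, 4.45 and 8.24 in radiation, 7.42, 7.61 and 8.65 in combined and 8.74, 6.81 and 8.43 in simvastatin. With that probe set and with 1442340_x_at every radiation array lay below every control array, as for 2.03% of genes by their brightest probe set. Radiation 2 on 1442340_x_at, and radiation 1 and 2 on 1457823_at, lay below log2 4.85, the level used to filter low values, so no size is given for these differences. These values were singled out after they were seen and carry no test, and what the dimmer probe sets detect was not tested.

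Group means of each TGF-beta ligand lay within 0.50 of one another. Tgfb1, the main ligand in wound repair and fibrosis, read 9.54, 9.51 and 9.54 in control and 9.36, 9.26 and 9.48 in radiation (Entrez gene 21803, probe set 1420653_at). The radiation arrays all lay below the control arrays, by a mean of 0.16, but median centring of the arrays turned the difference to 0.12. Its combined values were 9.75, 9.67 and 8.96 and its simvastatin values 8.63, 10.03 and 8.66. The 3 lowest values were those of the near-identical arrays, and the highest was that of simvastatin 2. Cd68, a macrophage marker, read 6.42 to 7.39 on the near-identical arrays and 8.46 to 10.81 elsewhere, with 10.81 on simvastatin 2. Chil3 and Mrc1 were also lower on the near-identical arrays, 13.32 to 13.33 and 11.24 to 11.31, than on simvastatin 2, 14.70 and 11.75. Control 1 was lower still for both, at 12.78 and 10.92. Marco, Fabp1 and Siglecf went the other way. Marco read 6.80 to 7.37 on the near-identical arrays and 2.29 on simvastatin 2, Fabp1 9.03 to 9.32 and 8.38, and Siglecf 7.05 to 7.33 and 6.71. Summed over 6 of 6 macrophage markers the signal was 13.73 to 13.75 on the near-identical arrays and 14.98 on simvastatin 2. By group it was 13.25 to 14.56 in control, 14.13 to 15.02 in radiation, 13.75 to 14.57 in combined and 13.73 to 14.98 in simvastatin. The part of macrophages in the Tgfb1 values was not tested.

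Tgfb2, a ligand also used as a YAP target, was lowest on control 1 (Entrez gene 21808, probe set 1450922_a_at). It read 8.09, 9.88 and 10.09 in control, 9.25, 10.10 and 10.20 in radiation, 9.24, 9.52 and 9.73 in combined and 9.64, 9.45 and 9.79 in simvastatin. All groups overlapped. Radiation minus control was 0.50 ± 0.48 (SE), and 0.35 to 0.53 with the other 3 probe sets. Without control 1 it was -0.13. Tgfb3, the third ligand, read 7.85, 9.28 and 9.41 in control and 8.84, 8.91 and 9.32 in radiation (Entrez gene 21809, probe set 1417455_at). Its combined values were 8.56, 8.98 and 9.91 and its simvastatin values 9.93, 8.67 and 9.86. The 3 near-identical arrays were the highest for Tgfb3. They also had the highest summed smooth muscle signal, 15.35 to 15.43 against 13.89 to 14.84 elsewhere, and its part in the Tgfb3 value was not tested.

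**Figure D3:**
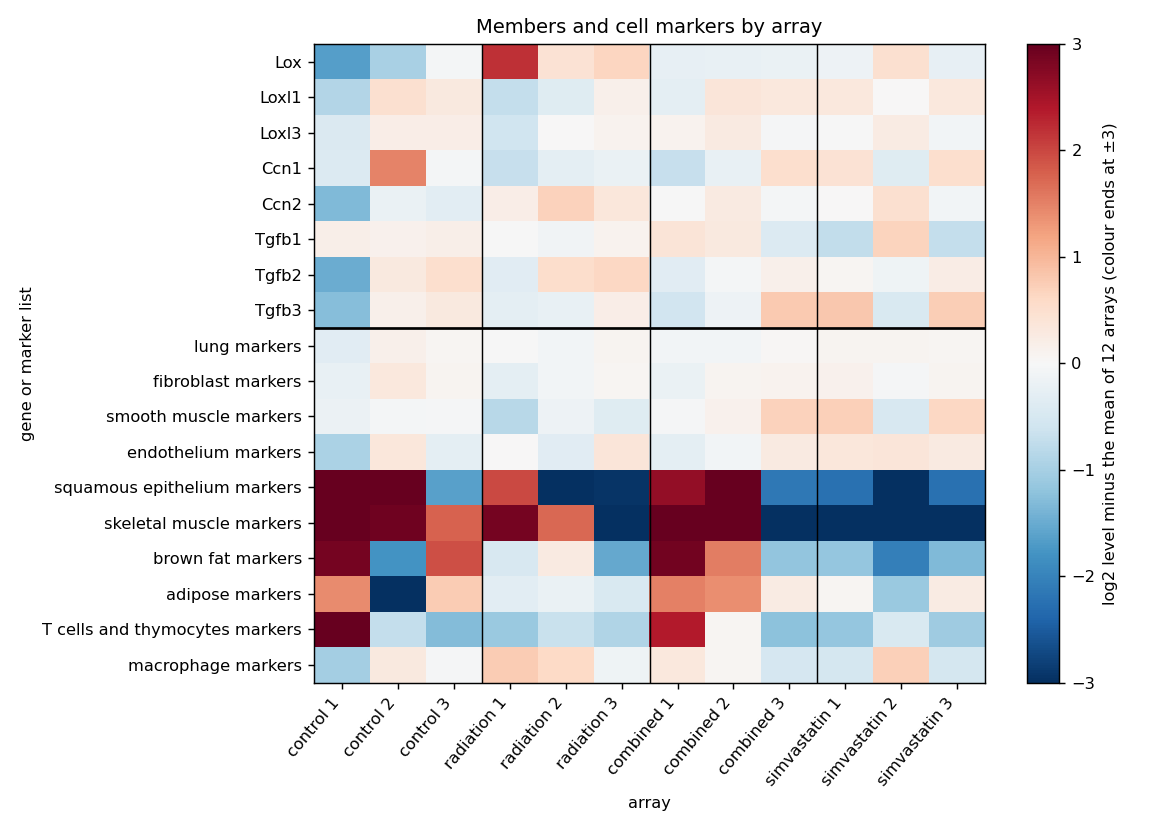
Deviation of each array from the 12-array mean, in log2 units with colours ending at -3 and 3, for the 8 genes and for the summed signal of 10 marker lists. Control 1 is lowest for 5 of the 8 genes and has the highest T cell and thymocyte signal, 14.30, while Lox stands out on radiation 1.

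Radiation minus control asks what remained different in the lung 6 weeks after irradiation. Lox was 1.98 ± 0.50 (SE) higher than in control on the log2 scale, 3.95-fold, and Ccn2 1.02 ± 0.29 (SE) higher, 2.03-fold. These differences are among those that prompted the choice of genes and are given as a description. Ccn1 (-0.74 ± 0.49), Loxl1, Loxl3 and Tgfb1 were lower and Tgfb2 and Tgfb3 higher, each within 2 SE of 0. No member passed limma's test at an adjusted p under 0.05, and 0 of all 11602 genes did (0%), while adjusted p-values of the 6 members besides Lox and Ccn2 were 0.751 to 0.921. At an unadjusted p under 0.05 stood 2 of the 8 genes, Lox and Ccn2, and 600 of all genes (5.17%). All radiation arrays lay above all control arrays for Lox and Ccn2, as for 4.86% of genes, and below them for Tgfb1, as for 2.03%.

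The size of these differences depended on single arrays. Without radiation 1 the Lox difference was 1.43, and without control 3 it was 2.40. Without control 1, Lox was 1.60 and Ccn2 0.66. That array held the highest T cell and thymocyte signal. It also held the lowest summed endothelial signal (8 of 8 markers, 14.48 against 15.11 to 15.81 elsewhere). The part of either in these values was not tested. Without control 2 the Ccn1 difference was -0.17. With the 3 arrays that go against their labels left out together, Lox was 2.40 and Ccn2 1.17 higher. Limma's array weights gave 1241 called genes in place of 0, Lox among them at 2.38, while Ccn2 was 0.62 with them. With these weights the control mean rested mainly on control 2, weighted 3.54 against 0.159 for control 1 and 0.298 for control 3. The median difference of all genes was 0.08, and median centring moved it to 0.36. Relative to the deposited median, Lox was 1.90 and Ccn2 0.94 higher.

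Combined minus radiation asks whether simvastatin changed the irradiated lung. Lox was 1.32 ± 0.50 (SE) lower in the combined group, 2.5-fold, a difference that was also known when the genes were chosen. Ccn2 was 0.35 ± 0.29 (SE) lower, with a 95% interval of -0.999 to 0.307, and Tgfb2 0.35 ± 0.48 (SE) lower. Loxl1 (0.45 ± 0.37), Loxl3, Ccn1, Tgfb1 and Tgfb3 were higher by less than 2 SE. Limma called 0 of 11602 genes (0%), and adjusted p-values of the 7 members besides Lox were 0.835 to 0.972. At an unadjusted p under 0.05 stood 1 of the 8 genes, Lox, and 518 of all genes (4.46%). Combined arrays all lay below radiation arrays for Lox, as for 13.5% of genes. Without radiation 1 the Lox difference was -0.77. The median of all genes was -0.09, and median centring moved it to -0.45.

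**Figure D4:**
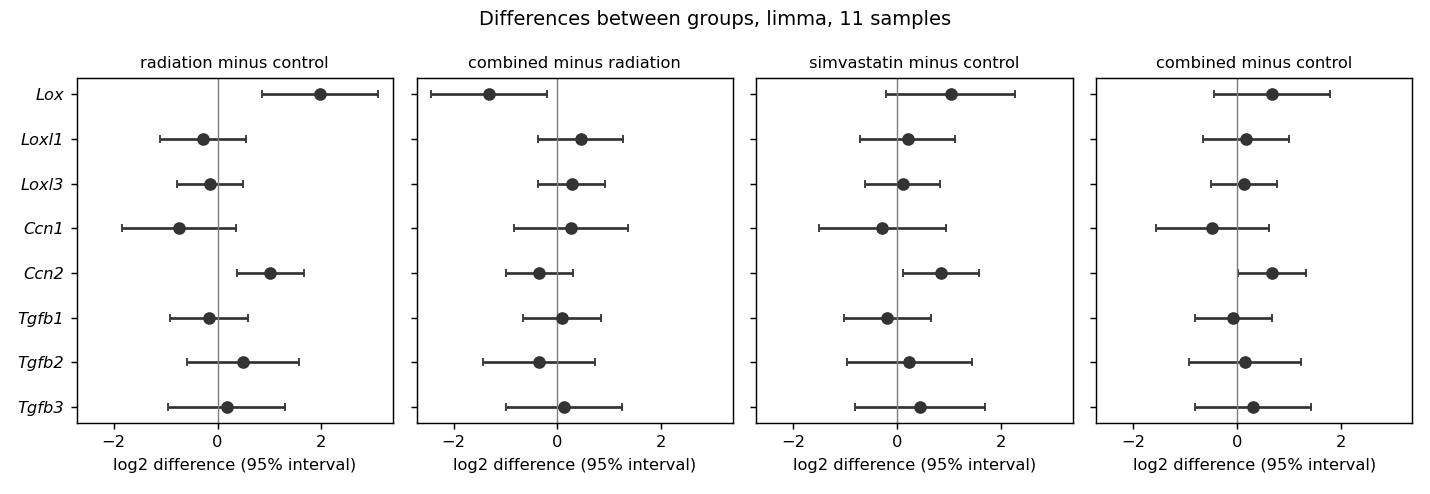
Log2 difference of each of the 8 genes in 4 comparisons, with points for the limma estimate and bars for its 95% interval. For Lox the interval of radiation minus control runs from 0.87 to 3.10 and that of combined minus radiation from -2.44 to -0.20, and the genes were chosen with these values known.

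Simvastatin minus control and combined minus control share the control arrays with each other and with radiation minus control, so their values are set side by side only. Ccn2 was 0.84 ± 0.33 (SE) higher in simvastatin and 0.67 ± 0.29 (SE) higher in combined than in control. Lox was 1.03 ± 0.56 (SE) and 0.66 ± 0.50 (SE) higher, with 95% intervals of -0.22 to 2.28 and -0.45 to 1.78. The other 6 genes differed by 0.44 or less in simvastatin and by 0.48 or less in combined. Limma called 0 of 11602 genes (0%) in both, with adjusted p-values of the members at 0.990 to 0.993 and at 0.995. At an unadjusted p under 0.05 stood Ccn2 alone of the 8 genes in each, against 214 genes (1.84%) in simvastatin and 327 (2.82%) in combined. Its arrays did not overlap with control in either, as for 2.82% and 2.67% of genes. Without control 1 the Ccn2 differences were 0.48 and 0.31 and the Lox differences 0.64 and 0.28, and without control 3 the combined Lox difference was 1.08. The summed skeletal muscle signal was 14.25 to 15.65 in control and 7.69 to 9.0 in simvastatin. That of squamous epithelium was 10.52 to 16.43 in control and 8.66 to 9.92 in simvastatin. The part of either tissue in these values was not tested.

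Combined minus simvastatin sets irradiated against unirradiated lungs under the drug. Lox was 0.37 ± 0.56 (SE) lower in combined, with a 95% interval of -1.61 to 0.88, and Ccn2 0.17 ± 0.33 (SE) lower, from -0.90 to 0.56. Without simvastatin 2, an array that goes against its label, Lox was -0.03 and Ccn2 0.09. The other 6 genes differed by 0.19 or less. Limma called 0 genes (0%). At an unadjusted p under 0.05 stood 0 of the 8 genes and 153 of all genes (1.32%). Near-identical arrays stand on both sides of this comparison. The summed skeletal muscle signal was 8.82 to 16.23 in combined and 7.69 to 9.0 in simvastatin, and its part in these values was not tested.

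The interaction asks whether the radiation difference itself differed with simvastatin. It was -2.35 ± 0.75 (SE) for Lox and -1.19 ± 0.44 (SE) for Ccn2, since the radiation difference was 1.98 and 1.02 without the drug and -0.37 and -0.17 under it. With single arrays left out the interaction ran from -2.77 to -1.80 for Lox and from -1.40 to -0.83 for Ccn2. Near-identical arrays stand on both sides of the difference under the drug. The interaction also uses the radiation minus control values that prompted the choice of these 2 genes and is given as a description. The other 6 genes gave -0.58 to 0.55, with adjusted p-values of 0.887 to 0.937. Limma called 0 genes (0%), and 2 of the 8 genes, Lox and Ccn2, and 377 of all genes (3.25%) had an unadjusted p under 0.05. Skeletal muscle markers had a median interaction of 8.265, against -0.09 over all genes, and their part in these values was not tested.

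Receptors and Smads of the TGF-beta pathway gave small differences, none of them called. All 5 receptor genes measured were higher in radiation than in control, with a median of 0.17 against 0.08 over all genes, 60.35% of which were above 0. Without control 1 the direction turned, with 2 of the 5 above 0 and a median of -0.04 against 0.02 over all genes. Eng, the endothelial co-receptor endoglin, was 0.35 ± 0.35 (SE) higher and Tgfbr2, which binds the ligand, 0.17 ± 0.21 (SE). All 5 were lower in combined than in radiation, with a median of -0.20 against -0.09 over all genes, 37.38% of which were above 0. Without combined 1, 2 of the 5 receptors were above 0, and without radiation 3, 1 of the 5. Of 13 Smads and regulators, 10 were above 0 in radiation minus control, with a median of 0.13, and without control 1 it was 9, with a median of 0.06. At an unadjusted p under 0.05 stood 2 of the 13, against 5.17% of all genes, and both were inhibitory Smads. Smad7, which TGF-beta induces and which blocks its receptor, was 0.56 ± 0.24 (SE) higher, and Smad6, which acts on the BMP branch, 0.74 ± 0.32 (SE). Smad7 read 10.53, 11.22 and 11.46 in control and 11.72, 11.81 and 11.38 in radiation, so the groups overlapped.

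Genes of latency and activation lay on both sides of 0. Of 17 listed genes 14 were measured, and 8 were above 0 in radiation minus control, with a median of 0.14. Without control 1 it was 4 of the 14, with a median of -0.05, and without radiation 3 the median was -0.0038. Furin, the protease that cleaves the ligand precursor, was 0.50 ± 0.33 (SE) higher, and Itgav, the integrin chain that releases latent ligand, 0.32 ± 0.18 (SE). Dcn, decorin, a proteoglycan that binds TGF-beta, was -0.64 ± 0.34 (SE) in radiation minus control and 0.83 ± 0.34 (SE) in combined minus radiation. Dcn read 12.97, 12.94 and 12.79 in radiation and 13.45, 13.90 and 13.82 in combined. It is also one of the fibroblast markers, whose summed signal was 16.41 to 16.76 in radiation and 16.49 to 16.79 in combined. By gene, 6 of the 10 markers were below 0 in radiation minus control, with a median of -0.35 against 0.08 over all genes. In combined minus radiation 6 of the 10 were above 0, with a median of 0.34 against -0.09. The part of fibroblasts in the Dcn values was not tested.

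TGF-beta target genes gave no common direction. Of 16 measured genes of 17, 9 were above 0 in radiation minus control and 7 below, with a median of 0.12. Without control 1 it was 6 of the 16, with a median of -0.20. Smad7 was the 1 target of the 16 at an unadjusted p under 0.05, against 5.17% of all genes. Bhlhe40, a transcriptional repressor, was 0.82 ± 0.41 (SE) higher, and Tnc, the matrix protein tenascin C, was -1.49 ± 0.79 (SE). Tnc read 9.85, 8.16 and 7.71 in control and 5.45, 7.90 and 7.90 in radiation, so radiation 1 and control 1 set the ends. In combined minus radiation 9 of the 16 were above 0, with a median of 0.02, and the median was -0.10 without radiation 1 and -0.01 without combined 1. Over all genes 37.38% were above 0 in that comparison, with a median of -0.09. Acta2, smooth muscle actin, gave 0.62 ± 0.29 (SE) and Cdkn2b, a cell cycle inhibitor, -0.91 ± 0.48 (SE). Acta2 read 13.54, 13.75 and 14.37 in combined, the last on combined 3, 1 of the near-identical arrays. It is also 1 of 6 smooth muscle markers, all of them above 0 in this comparison, with a median of 0.92 against -0.09 over all genes. The part of smooth muscle in the Acta2 value was not tested.

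Genes of the YAP and TEAD pathway were mostly above control, a direction that ended without control 1. Of 17 measured genes of 19, Tgfb2 included, 16 were above 0 in radiation minus control, with a median of 0.34. In simvastatin minus control it was also 16, with a median of 0.35. Over all genes 60.35% and 49.62% were above 0, with medians of 0.08 and -0.002. Without control 1 the list medians were -0.09 and -0.08, with 7 of 17 above 0 in each. The medians of all genes were then 0.02 and -0.07. Lats2, the kinase that restrains YAP and is itself a target, was 0.75 ± 0.26 (SE) higher in radiation. It read 10.70, 11.59 and 11.85 in control and 12.00, 12.29 and 12.10 in radiation, higher without overlap, as for 4.86% of genes. Ptpn14 and Nuak2 were 0.71 ± 0.46 (SE) and 0.56 ± 0.40 (SE) higher. In combined minus radiation 8 of the 17 were above 0, with a median of -0.03, and without radiation 3 the median was 0.06. Over all genes 37.38% were above 0 in that comparison, with a median of -0.09, and of -0.11 without radiation 3. Among the other CCN genes 3 of 4 were measured, and Ccn3 gave 0.43 ± 0.48 (SE), Ccn4 0.0011 ± 0.63 (SE) and Ccn5 -0.17 ± 0.52 (SE) in radiation minus control.

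Enzymes and substrates of matrix crosslinking lay on both sides of 0, with a balance that depended on single arrays. Of 22 measured genes of 26, 11 were above 0 and 11 below in radiation minus control, with a median of -0.02, and after median centring 16 were above 0, with a median of 0.26 against 0.36 over all genes. Without control 1 it was 6 of the 22, with a median of -0.27, and without radiation 1 it was 15, with a median of 0.15. P4ha2, a collagen prolyl hydroxylase subunit, was 1.19 ± 0.38 (SE) higher. It read 8.23, 9.41 and 10.02 in control and 10.57, 10.46 and 10.21 in radiation, higher without overlap, as for 4.86% of genes. Its combined values were 9.87, 9.51 and 9.99. Plod1, a collagen lysyl hydroxylase, was 0.97 ± 0.46 (SE) higher, while Col1a1 was -0.62 ± 0.33 (SE). Fbln2, fibulin 2, was -1.50 ± 0.65 (SE) in simvastatin minus control, 1.74 ± 0.65 (SE) in combined minus simvastatin and 2.64 ± 0.87 (SE) for the interaction. Its lowest value, 5.21, was that of simvastatin 2. Limma called 0 of these list genes in any of the 6 comparisons.

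**Figure D5:**
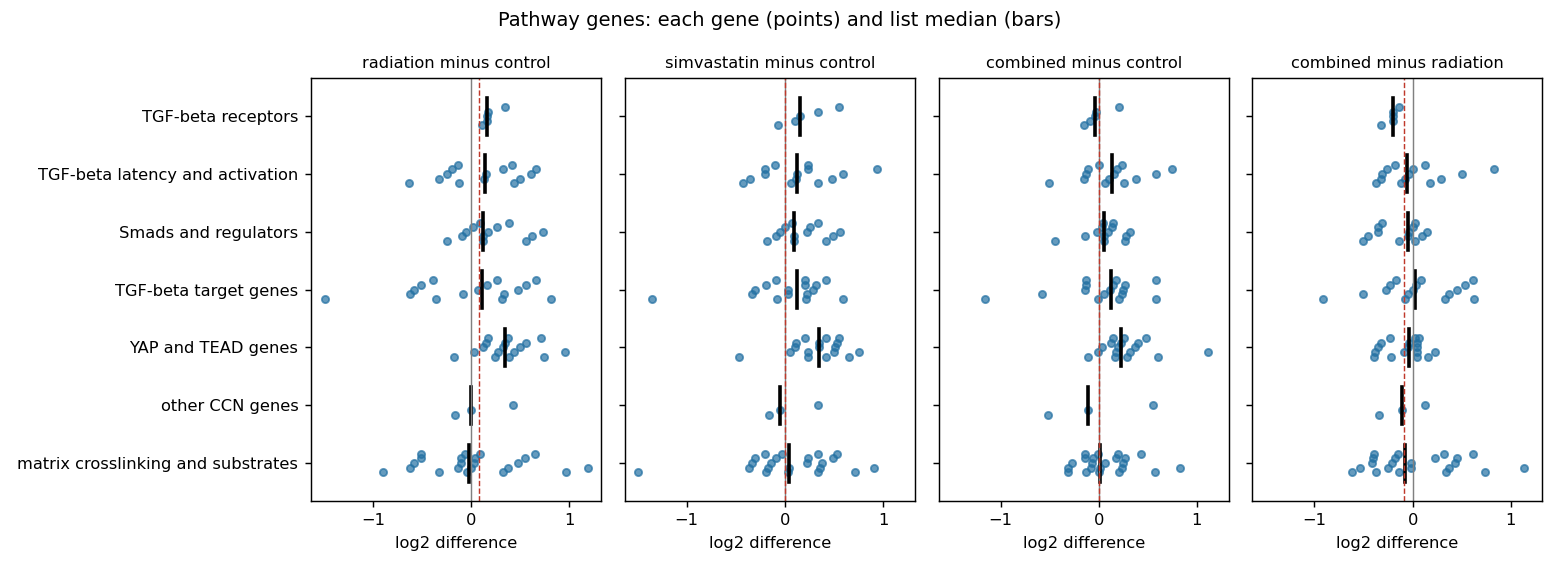
Log2 differences of the genes of 7 pathway lists in 4 comparisons, with 1 point per gene, a black bar for the list median and a red dashed line for the median of all genes. The YAP and TEAD list has a median of 0.34 in radiation minus control, against 0.08 over all genes. In combined minus radiation it is -0.03, against -0.09. Without control 1 the first was -0.09, against 0.02.

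The profiles most like those of Lox, Ccn2 and Tgfb2 were found by the root mean square distance between mean-centred log2 values over 11 samples. For Lox they were Sphk1, the kinase that makes sphingosine-1-phosphate, at 0.39, Ramp3, a receptor activity modifying protein, at 0.42, and Pxdc1 and Bcar3 at 0.44 each. The spread of Lox itself was 0.93 and its median distance to all genes 0.93. Sphk1 read 6.18, 7.76 and 8.03 in control and 9.63, 8.23 and 8.83 in radiation, again highest on radiation 1. Ccn2 was at 0.69 from Lox, and ranked 425 by nearness among all genes. For Ccn2 the nearest were Atp8b1 at 0.14, Cd200 at 0.18, and Pi4k2b and Ctla2a at 0.19, against a median of 0.57. Atp8b1 read 8.27 on control 1 and 9.22 to 10.04 elsewhere. For Tgfb2 the nearest were Lysmd2 at 0.15, Adamts8 and Slc22a23 at 0.16 and Ldb2 at 0.17, against a median of 0.60.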

How the data were processed

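Values are log2 intensities as deposited, 45101 probe sets on 12 arrays. The submitters' processing notes name MAS5 and GCRMA, without version or settings. Array medians of the deposited values ran from 4.41 to 5.12. Control probe sets (64) and those with several symbols (932) or none (9160) were left out. A probe set was kept above log2 4.85, the median of all values, on at least 3 arrays, and the brightest stood for its gene, which gave 11602 genes. Array number limits the precision.

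limma 3.58.1 in R 4.3.3 (lmFit, eBayes with trend) fitted group means over 11 samples with 7 residual degrees of freedom. P-values are two-sided and adjusted by Benjamini and Hochberg over all genes within each of 6 comparisons, and SE is limma's. Scripts were tested on simulated data. Members and lists were chosen with earlier results of these data known. Named were the members, up to 3 genes of lowest unadjusted p per list and comparison, the 4 nearest profiles of Lox, Ccn2 and Tgfb2, and defining markers. Promoters came from RefSeq tables of GRCm38.p6. Alternatives were 12 arrays as samples, the replicate block, median centring, quantile normalization, other filters, no trend, array weights, all probe sets averaged, and arrays left out.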

Additional observations from a re-analysis of the deposited data

How the results depend on the processing

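The number of genes called by limma at an adjusted p under 0.05 was 0 in each of the 6 comparisons, with 600, 518, 214, 327, 153 and 377 genes at an unadjusted p under 0.05 for radiation against control, combined against radiation, simvastatin against control, combined against control, combined against simvastatin and the interaction. With array weights it was 1241 in radiation minus control, 1172 in combined minus radiation and 43 in combined minus control. Control 3 had a weight of 0.298, so the weighted control mean was mainly that of control 2, where Ccn1 and Loxl1 were highest. The weights ran from 0.159 for control 1 to 3.54 for control 2. With them Lox was 2.38 higher in radiation than in control (adjusted p = 0.0309) and 1.69 lower in combined than in radiation (-1.69, adjusted p = 0.0405), Ccn1 was -1.81 (adjusted p = 0.0309) and Loxl1 -0.92 (adjusted p = 0.0454) in radiation minus control. Ccn2 was 0.62 (adjusted p = 0.0611) in that comparison and -0.745 for the interaction. Without control 3, combined 3 and simvastatin 2 together 9 genes were called in radiation minus control and 2 in combined minus control. With single arrays left out the counts ran from 0 to 1 in radiation minus control, combined minus control and the interaction, the 1 without control 3, and stayed at 0 in the other comparisons. With the replicate number as a block on all 12 arrays the count was 0 in all 6 comparisons. For the 18 same-numbered pairs of arrays of different groups, deviations from the group means correlated at -0.259 to 0.408. These lay on both sides of 0, so the numbers were not taken to pair the arrays. Of 48 member differences, none of them called, 10 changed sign under median centring, 11 with array weights and 12 without control 1, and 0 to 6 under each of the other settings. The cause of these changes was not tested. Adjusted p-values of Lox in radiation minus control were 0.0929 to 1 with single arrays left out.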
